A study of Sus scrofa with 8 samples.

Results

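The HOX genes of the A, B, C and D clusters were followed while pig (Sus scrofa) pluripotent stem cells were turned into lung progenitor organoids. A gene was a member when its symbol in the deposited table was HOXA, HOXB, HOXC or HOXD followed by a number and nothing else, a rule that uses no measured value. It found 35 members among 25578 genes, namely 9 of HOXA, 10 of HOXB, 8 of HOXC and 8 of HOXD. HOXA4, HOXA6, HOXC12 and HOXD12 were not analysed here. Messenger RNA was sequenced at 4 stages with 2 libraries each: pluripotent stem cells (PSC), definitive endoderm (DE, the embryonic source of gut, liver and lung lining), anterior foregut endoderm (AFE, from which the lung buds) and the organoids (LPO). The labels give no cell line, culture day or differentiation agent, and do not tell whether the 2 libraries of a stage are separate cultures. The p-values below thus reflect the spread among these libraries alone, and that spread may be technical.

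HOX genes encode homeodomain transcription factors that give the cells of an embryo their position from head to tail. The genes of a cluster lie in the order in which they are used along the body: low paralog numbers at the head end, high numbers at the tail end. In mammals the genes at the low-number end are also switched on first, and retinoic acid is known to induce them. In the lung, members of the middle of the clusters are known from the mesenchyme around the airways, where HOXA5 and HOXB5 take part in the branching and maturation of the epithelium. Below, paralogs 1 to 3 are called anterior (8 members), 4 to 8 central (13 members) and 9 to 13 posterior (14 members).

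The libraries held 36004372 to 67566269 deposited counts, about 9001093 to 16891567 read pairs, and the libraries of a stage correlated at 0.991 to 0.996 across genes (Pearson, log scale). Levels are given in the authors' FPKM (fragments scaled to transcript length and to depth), the scale on which genes of unequal length can be compared. Fold changes between stages come from counts per 1e+06 (CPM) after scaling, with factors of 1.27 and 1.26 in LPO and 0.901 to 0.954 elsewhere. A rise to LPO is smaller on that scale than the FPKM ratio. FPKM summed to 345563 and 347824 in LPO and to 439098 to 467008 elsewhere. A 0 allows up to 3 read pairs in a library (counting error only), which is 0.15 to 0.357 CPM. Against a stage at 0 in both libraries only a lower bound is given, taken from that floor, and with 1 to 3 read pairs a ratio with its 95% counting interval is given. Adjusted p-values are Benjamini-Hochberg values of edgeR's quasi-likelihood test over 19346 genes, and a gene is called under 0.05. Stage markers went with the labels in part. The summed level of 5 pluripotency genes was 3111 and 3501 FPKM in PSC, 16.4 and 16.1 FPKM in AFE, and 38.2 and 38.8 FPKM in LPO. From PSC to LPO, 3 of the 4 pluripotency genes tested fell (28.8% of all genes) and 1 rose (41.5%). All 5 endoderm markers rose from PSC to DE, where 30.8% of all genes rose. Their sums were 19 and 21.3 FPKM in PSC and 275 and 260 FPKM in DE. The 5 anterior foregut markers summed to 119.87 and 118.65 FPKM in DE, 55.9 and 52.3 FPKM in AFE and 74.4 and 76.8 FPKM in LPO. That sum was thus lower in the stage labelled foregut than in DE and LPO. By gene, 2 of the 5 rose from DE to AFE (17.9% of all genes), 1 fell (17.4%) and 2 were not called. Their median log2 change was 1.69, beside 0 for all genes tested. The list shares FOXA2 with the endoderm list and SOX2 with the pluripotency list. The lung epithelial regulator NKX2-1 was at 0 in PSC and DE, at 7.94 and 7.62 FPKM in AFE and at 18.6 and 18.9 FPKM in LPO. The surfactant gene SFTPC was at 0 in all libraries before LPO. Of the 5 lung epithelium markers, which include both genes, 3 rose, 1 fell and 1 was not called from AFE to LPO. Over all genes, 30.2% rose and 29.6% fell at that step. In the LPO libraries 3 and 4 of the 5 lung epithelium markers stood at 1 FPKM or more.

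The HOX genes as a whole were nearly silent in PSC and were most abundant in LPO. The 35 members held 25 and 31 read pairs in the PSC libraries, 506 and 432 in DE, 9076 and 8312 in AFE, and 20358 and 20777 in LPO. Their summed level was 0.81 and 1.15 FPKM in PSC, 17.2 and 14.7 FPKM in DE, 273 and 247 FPKM in AFE, and 639 and 652 FPKM in LPO. No stage overlapped another in this sum. The number of members at 0 was 29 and 30 in the PSC libraries, 8 and 10 in DE, 5 and 4 in AFE, and 2 in each LPO library. At 1 FPKM or more stood none in PSC, 4 and 3 in DE, 15 and 16 in AFE, and 28 and 29 in LPO. By mean FPKM, 28 members were highest in LPO, 6 in AFE (among them HOXA2, HOXB1, HOXB2 and HOXB13) and 1 in DE (HOXD13). In bulk samples, fewer cells of a type and less RNA per cell cannot be told apart.

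**Figure D1:**
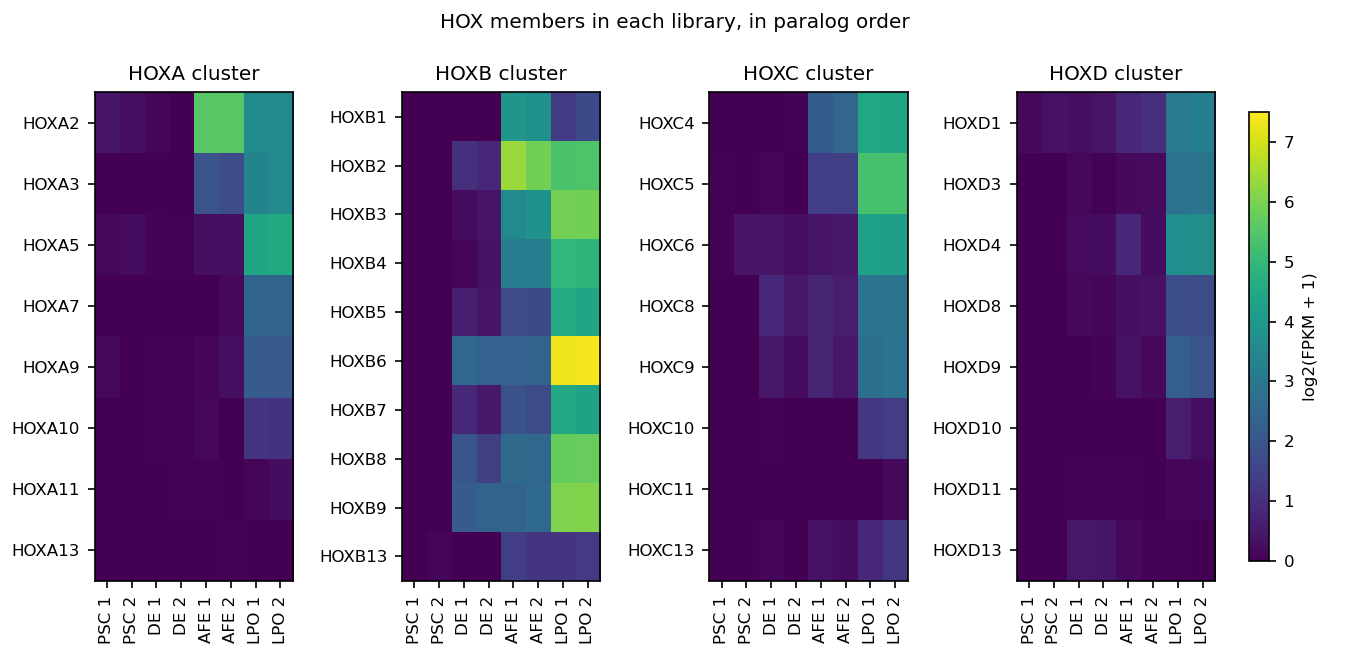
Level of HOX members (rows, in paralog order within each cluster) in the 8 libraries (columns), as log2(FPKM + 1). PSC columns are dark throughout, AFE columns are bright at HOXA2 and HOXB2, and LPO columns are brightest at HOXB6.

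The clusters differed in the stage at which they dominated. HOXB held 82.6% of the HOX FPKM in DE (mean of 2 libraries), against 2.31% for HOXA, 8.26% for HOXC and 6.81% for HOXD. In AFE, HOXA and HOXB were close, with 128 and 126 FPKM for HOXA and 135 and 112 FPKM for HOXB, and their ranges overlapped. HOXC stood at 7.31 and 7.68 FPKM and HOXD at 2.43 and 1.91 FPKM in the same libraries. In LPO, HOXB reached 452 and 458 FPKM, HOXC 91.8 and 92.5 FPKM, HOXA 63.3 and 69.2 FPKM, and HOXD 32.5 and 32.3 FPKM, with no overlap between clusters. The LPO to AFE ratio of these sums was 0.521 for HOXA, 3.68 for HOXB, 12.3 for HOXC and 14.9 for HOXD. On scaled counts, which are not per length, the HOXC ratio was 7.74 and the order of the sums differed. HOXA (342 and 337 CPM) then stood above HOXB (226 and 192 CPM) in AFE, and HOXA (183 and 203 CPM) above HOXC (155 and 156 CPM) in LPO.

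The mix of paralogs turned over at each step as well. In DE, central paralogs gave 63.3% and 54.0% of the HOX FPKM and posterior ones 26.3% and 34.0%. In AFE, anterior paralogs gave 86.3% and 85.2%, and paralogs 1 and 2 alone 81.3% and 78.8%. In LPO, central paralogs gave 63.6% and 63.2%, anterior ones 23.5% and 23.8%, and posterior ones 12.9% and 13%. The posterior share rested on paralog 9: paralogs 10 to 13 together gave 3.53% in DE, 0.718% in AFE and 0.872% in LPO. Different genes led from stage to stage. In DE, HOXB6 (4.50 ± 0.502 FPKM, SD, n = 2) and HOXB9 (3.85 ± 0.559) overlapped, ahead of HOXB8 (2.34 ± 0.948), and these 3 genes gave 28.2%, 24.1% and 14.7% of the HOX FPKM. In AFE, HOXB2 (70.3 ± 17 FPKM) stood above HOXA2 (45.8 ± 0.410 FPKM), and both were among the leading genes. In LPO, HOXB6 (161.5 ± 7.10 FPKM) stood well above HOXB9 (65.4 ± 1.01), HOXB3 (59.3 ± 1.12), HOXB8 (52.5 ± 0.573), HOXB2 (41.4 ± 0.771) and HOXC5 (38.6 ± 0.0283), and no neighbours in this order overlapped. By paralog number, number 2 led in AFE (128 and 104 FPKM) and number 6 in LPO (175 and 184 FPKM).

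**Figure D2:**
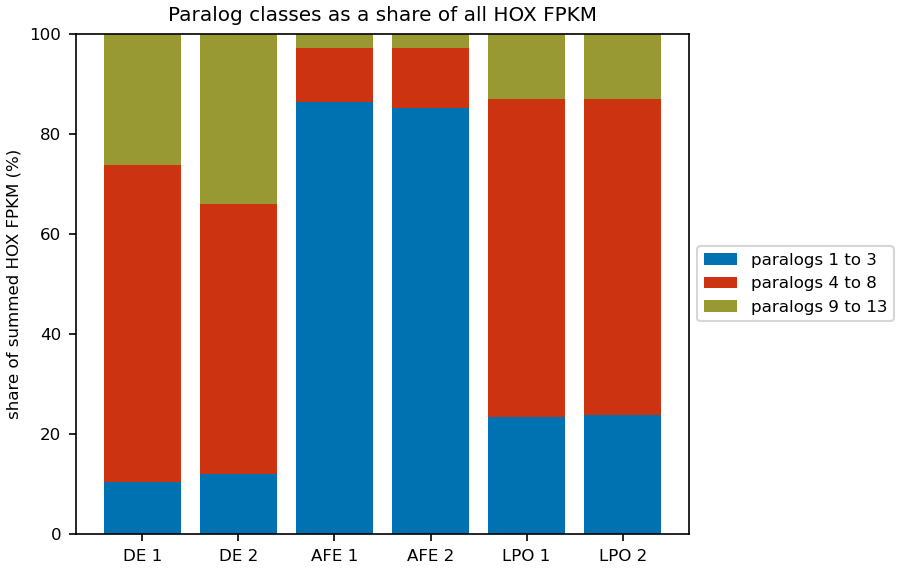
Share of the summed HOX FPKM (vertical axis, percent) held by anterior (paralogs 1 to 3), central (4 to 8) and posterior (9 to 13) members in each DE, AFE and LPO library. Anterior members hold 86.3% and 85.2% in AFE, central members 63.6% and 63.2% in LPO.

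The HOXA cluster (chromosome 18, 45373440 to 45480152, plus strand, coordinates as deposited, genome build not given in the sources used here) had its highest summed level in AFE. HOXA2, which patterns the second pharyngeal arch and the hindbrain, was at 0.36 and 0.25 FPKM in PSC, 0.07 and 0 in DE, 46.1 and 45.5 FPKM in AFE, and 10.9 and 11.1 FPKM in LPO. HOXA3, needed for the thymus and parathyroid, was at 0 in PSC and DE, 2.78 and 2.45 FPKM in AFE, and 9.42 and 11.1 FPKM in LPO. The order thus changed between these neighbours, with HOXA2 highest in AFE and HOXA3 highest in LPO.

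HOXA5, the lung mesenchyme regulator, was nearly absent until LPO: 0.12 and 0.18 FPKM in PSC, 0.05 and 0.03 FPKM in DE, 0.24 and 0.23 FPKM in AFE, and 20.2 and 22.5 FPKM in LPO. Its row spans 11223 bases (45421663 to 45432885), and reads of other HOXA transcripts inside that span could not be told apart. The rows of HOXA3, HOXC6 and HOXD3 span 12325, 14059 and 14973 bases, and the same limit holds for them. HOXA7, HOXA9 (known from blood stem cells) and HOXA10 (known from the uterus) reached at most 0.24 FPKM before LPO and 4.32 and 4.25, 3.47 and 3.23, and 1.19 and 1.16 FPKM in LPO. HOXA11, a regulator of limb and kidney, stayed at or below 0.19 FPKM, and HOXA13, a gene of digits and hindgut, showed signal in 1 library only (0.03 FPKM in AFE). Along HOXA, the mean level was lower at higher paralog numbers in AFE (Spearman rho of -0.97 over 9 members of the same 2 libraries) and in LPO (-0.90), a description of genes that share libraries.

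**Figure D3:**
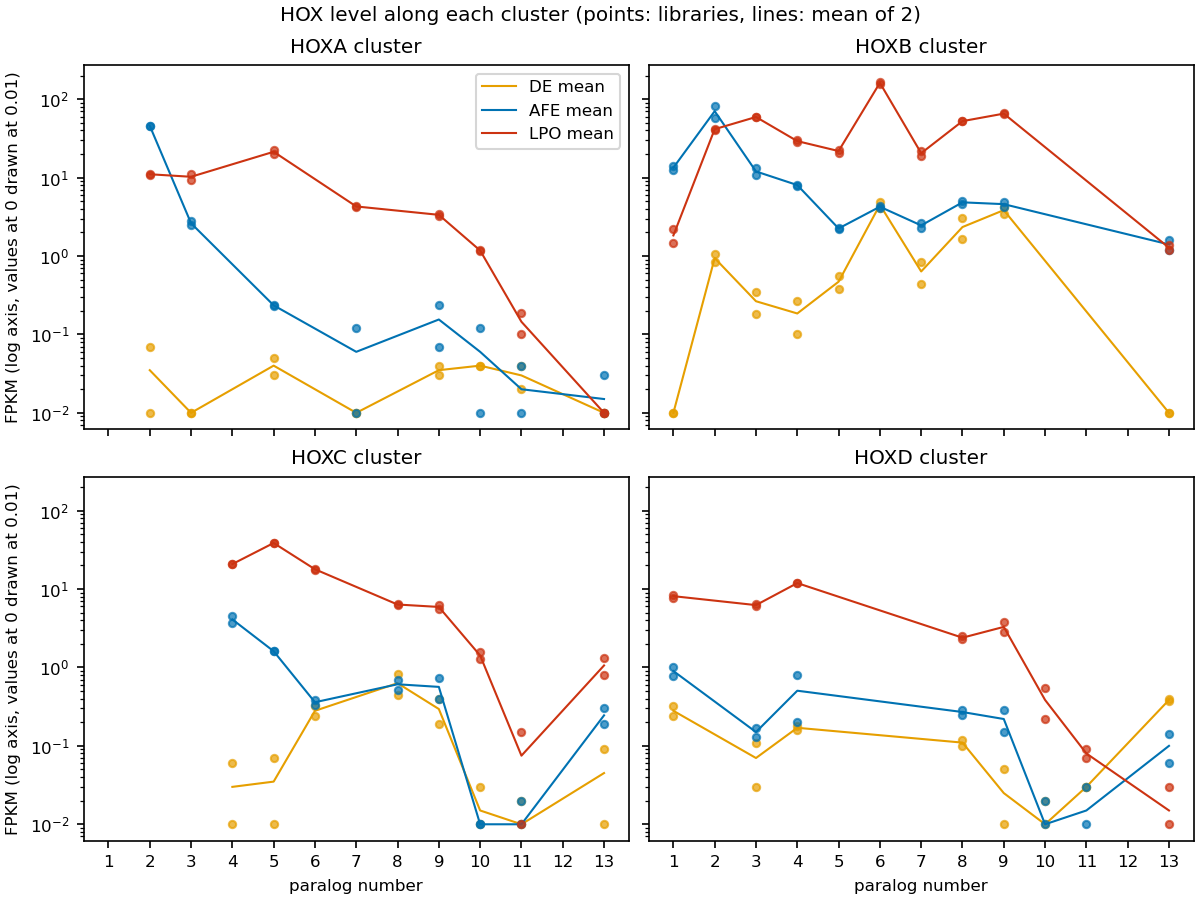
FPKM of HOX members (log axis, values at 0 drawn at 0.01) against their paralog number in the 4 clusters, for DE, AFE and LPO, with points for libraries and lines for the mean of 2. HOXA2 lies higher in AFE than in LPO, while HOXB6 peaks at a mean of 161.5 FPKM in LPO. Lines pass over paralog numbers without a member.

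The HOXB cluster (chromosome 12, 24784594 to 24950714, minus strand) had the highest summed level in DE and in LPO. HOXB1, which sets the identity of a hindbrain segment, was at 0 in PSC and DE, 14.2 and 12.6 FPKM in AFE, and 1.46 and 2.2 FPKM in LPO. HOXB2, its hindbrain neighbour, was at 0 in PSC, 1.05 and 0.83 FPKM in DE, 82.3 and 58.3 FPKM in AFE, and 40.9 and 42.0 FPKM in LPO. HOXB1 and HOXB2 were therefore highest in AFE, with no overlap with LPO.

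From HOXB3 to HOXB9 the members were highest in LPO. HOXB3, a hindbrain and pharyngeal gene, was at 0.18 and 0.35 FPKM in DE, 10.8 and 13.2 FPKM in AFE, and 60.0 and 58.5 FPKM in LPO. A pseudogene row on the same strand overlaps it and holds 2.91% of its count. HOXB4, known from blood stem cells, was at 0.10 and 0.27, 8.14 and 7.92, and 30.1 and 28.3 FPKM at these stages, and HOXB5 at 0.56 and 0.38, 2.27 and 2.22, and 22.8 and 20.8 FPKM. All of them were at 0 in both PSC libraries.

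HOXB6 was the most abundant HOX gene in LPO. It was at 0 in PSC, 4.85 and 4.14 FPKM in DE, 4.14 and 4.36 FPKM in AFE, and 156 and 167 FPKM in LPO, where it held 25% of the HOX FPKM. HOXB7 was at 0.83 and 0.44 FPKM in DE, 2.65 and 2.26 FPKM in AFE, and 21.9 and 19.0 FPKM in LPO. HOXB8 was at 3.01 and 1.67, 5.05 and 4.62, and 52.1 and 52.9 FPKM, and HOXB9, a gene of the thoracic region, at 3.45 and 4.24, 4.23 and 4.94, and 64.7 and 66.1 FPKM. DE and AFE overlapped in HOXB6 and HOXB9, and LPO lay far above both stages in all 4 genes. HOXB13, known from the prostate and the tail end of the body, was at 0.10 FPKM in 1 PSC library, 0 in DE, 1.60 and 1.21 FPKM in AFE, and 1.18 and 1.37 FPKM in LPO. Along HOXB, rho between level and paralog number was -0.77 in AFE (10 members) and 0.04 in LPO.

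The HOXC cluster (chromosome 5, 19151084 to 19268257, plus strand), whose members start at paralog 4, was low until LPO. HOXC4 was at 0 and 0.06 FPKM in DE, 3.64 and 4.55 FPKM in AFE, and 21.0 and 20.6 FPKM in LPO. HOXC5 was at 0.07 and 0 in DE, 1.61 FPKM in each AFE library, and 38.6 and 38.7 FPKM in LPO, which made it the highest HOXC gene. The microRNA row mir-615 lies inside HOXC5 and holds 0.0919% of its count. HOXC6, a gene of the neck-to-thorax boundary, was at 0.06 and 0.32 FPKM in PSC, 0.32 and 0.24 FPKM in DE, 0.33 and 0.39 FPKM in AFE, and 18.2 and 17.5 FPKM in LPO. Before LPO it was thus at or below 0.39 FPKM in every library.

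HOXC8 was at 0.82 and 0.44, 0.70 and 0.52, and 6.30 and 6.39 FPKM in DE, AFE and LPO, and HOXC9, which marks thoracic motor neurons, at 0.40 and 0.19, 0.73 and 0.40, and 5.55 and 6.27 FPKM. HOXC10, a lumbar gene, was at 0 in PSC and AFE, 0.03 FPKM in 1 DE library, and 1.27 and 1.57 FPKM in LPO. HOXC11 stayed at or below 0.15 FPKM, and HOXC13, a gene of hair and nails, was at 0.30 and 0.19 FPKM in AFE and 0.81 and 1.31 FPKM in LPO. In LPO, rho between level and paralog number was -0.95 along HOXC (8 members).

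The HOXD cluster (chromosome 15, 81893972 to 81990134, plus strand) was the lowest of the 4 clusters in AFE and LPO. HOXD1, known from pain-sensing neurons, was at 0.13 and 0.30 FPKM in PSC, 0.24 and 0.32 FPKM in DE, 0.78 and 1.02 FPKM in AFE, and 7.74 and 8.48 FPKM in LPO. HOXD1 was thus highest in LPO, whereas HOXB1 was highest in AFE. HOXD3 and HOXD4, which shape the neck vertebrae, were at or below 0.17 FPKM and at 0.81 and 0.20 FPKM in AFE, and at 6.09 and 6.38 FPKM and 11.8 and 12 FPKM in LPO.

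HOXD8 was at 0.25 and 0.29 FPKM in AFE and 2.49 and 2.30 FPKM in LPO, and HOXD9 at 0.29 and 0.15 FPKM and 3.77 and 2.81 FPKM. HOXD10, a lumbar gene, reached 0.55 and 0.22 FPKM in LPO and HOXD11, a forelimb gene, 0.09 and 0.07 FPKM. HOXD13, a regulator of digits and the genital and hindgut end of the body, ran the other way: it was at 0 in PSC, 0.40 and 0.37 FPKM in DE, 0.14 and 0.06 FPKM in AFE, and 0.03 and 0 in LPO. These values rest on 14 and 13 read pairs in DE, 6 and 2 in AFE, and 1 and 0 in LPO.

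Of the 35 members, 32 passed the filter on low counts and were tested, and HOXA13, HOXC11 and HOXD11 did not. Among the 4 stages, 31 of the 32 differed at an adjusted p under 0.05 (79.2% of all genes did), the exception being HOXA11 (edgeR adjusted p = 0.134). Consecutive comparisons share a stage, so that a low value in one is not independent of a high value in the next.

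From PSC to DE, HOXB2 to HOXB9 appeared at a low level, and HOXA3 and HOXB1 stayed at 0. HOXB13, at the far end of the cluster, was at 0 in DE and was not called. Of the 32 members, 15 rose, where 30.8% of all genes did, 2 fell, where 23.0% did, and 15 were not called. In either direction 17 were called (53.8% of all genes). By cluster, 8 of 10 HOXB members rose (HOXB2 to HOXB9), with 1 of 8 HOXA members, 2 of 7 HOXC members (HOXC8 and HOXC9) and 4 of 7 HOXD members (HOXD3, HOXD4, HOXD8 and HOXD13). By class, 4 of 8 anterior, 8 of 13 central and 3 of 11 posterior members rose. The rises were at least 26.0-fold for HOXB9 (edgeR adjusted p = 2.39e-06), at least 23.5-fold for HOXB6 (1.18e-06) and at least 15.1-fold for HOXB8 (4.27e-05). HOXC8 rose at least 5.18-fold, HOXB2 at least 4.15-fold, HOXB5 at least 3.27-fold, HOXB7 at least 2.97-fold and HOXD13 at least 2.95-fold.

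The bounds of the other rising genes lay between 1.20 (HOXD4) and 1.52 (HOXD8), and HOXD3 was at the floor in both stages, so that no fold is given. The genes that fell were HOXA2, with a ratio of 8.39 (interval 2.37 to 45.2), and HOXA5, 3.57-fold lower (log2 change of -1.81 with SE 0.352, edgeR adjusted p = 0.00315), both of them at or below 0.36 FPKM in PSC. The median fitted log2 change of the tested members was 5.90, and 0.13 with genes at 0 set to their bound, beside 0.08 for all genes tested. With limma on log2(FPKM + 1), 10 members were called in place of 17, and HOXA5, HOXB4, HOXC9, HOXD3, HOXD4 and HOXD8 were among those lost. HOXA2 and HOXA5 were not called when only the 4 libraries compared were fitted (adjusted p = 0.122 and 0.107), nor was HOXD4 without PSC replicate 1 (0.0657), PSC replicate 2 (0.0544) or DE replicate 2 (0.0594). The log2 change of HOXA2 was -2.09 without DE replicate 2 (-3.05 with all libraries), and without DE replicate 1 it was at 0 in DE.

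In the same step, all 4 hindgut and intestinal markers tested (CDX2, CDH17, VIL1 and LGR5) rose, with a summed level of 2.05 and 1.5 FPKM in PSC and 24.8 and 25.5 FPKM in DE. The brush border gene VIL1, at 20.9 and 22.6 FPKM in DE, gave most of that sum, and CDX2, which also stands among the upstream homeobox genes below, was at 1.40 and 1.01 FPKM. Over all genes, 30.8% rose and 23.0% fell at this step. Of 13 mesenchyme markers 10 rose, with sums of 265 and 268 FPKM in PSC and 413 and 321 FPKM in DE. LUM and TBX5 were at 0 in DE replicate 1 and TBX5 in DE replicate 2. Of 5 endothelium and blood markers 3 rose and 1 fell, with sums of 0.55 and 0.46 FPKM in PSC and 13.3 and 7.8 FPKM in DE, where PTPRC was at 0 in both libraries. The part of any of these lists in the HOX values was not tested.

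From DE to AFE, HOXA2, HOXB1 and HOXB2, which were at or below 1.05 FPKM in DE, reached a high level. Of the 32 tested members 16 rose (17.9% of all genes), none fell (17.4% of all genes) and 16 were not called, where 35.3% of all genes were called in either direction. Anterior members rose in 7 of 8 cases, central ones in 8 of 13 and posterior ones in 1 of 11 (HOXB13). HOXA2 rose from 0.0951 to 126 CPM, a ratio of 1320 (interval 451 to 6404), and HOXB1 at least 110-fold. HOXB2 rose 76.6-fold from 1.36 ± 0.209 to 104 ± 24.8 CPM (SD, n = 2 per stage, log2 change of 6.26 with SE 0.229, edgeR adjusted p = 7.25e-06).

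The change became smaller along the HOXB cluster. HOXB3 rose 46.6-fold and HOXB4 43.8-fold, HOXB5 4.91-fold, HOXB7 3.96-fold and HOXB8 2.14-fold, whereas HOXB6 and HOXB9 were not called (edgeR adjusted p = 0.883 and 0.15). HOXB13, at the far end, rose at least 16.2-fold to 3.38 ± 0.660 CPM. Of HOXA, HOXA3 rose at least 43.2-fold and HOXA5 5.93-fold. HOXC4 had a ratio of 134 (interval 45.3 to 650) and HOXC5 of 44.4 (11.9 to 372), while HOXD1 rose 3.30-fold and HOXD8 2.45-fold. Across the 32 tested members, which share libraries, the fitted log2 change had a Spearman rho of -0.59 with paralog number. Members at 0 in DE, and members at or under the floor in both stages, entered it with fitted values and not with bounds.

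The median log2 change of the tested members from DE to AFE was 2.06 (1.85 with genes at their bound), beside 0 for all genes tested. Calls were lost for HOXB8 without AFE replicate 1 (adjusted p = 0.08) or AFE replicate 2 (0.058), for HOXD1 without DE replicate 1 (0.0618) or AFE replicate 2 (0.0656), and for HOXD8 without any 1 DE, AFE or LPO library (0.0608 to 0.12) and when only the 4 libraries compared were fitted (0.0901). HOXA5 was not called with limma on log2(FPKM + 1) (0.0754). The log2 change of HOXA2 was 9.34 and of HOXB4 6.28 without DE replicate 2 (10.33 and 5.45 with all libraries), that of HOXC5 4.44 without DE replicate 2 and that of HOXC4 6.05 without DE replicate 1 (5.42 and 7.04). Without the other DE library, HOXA2, HOXC4 and HOXC5 were at 0 in DE. Over the whole table, 4535 genes were called without AFE replicate 2 and 6838 with all libraries.

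Markers of other cell types moved at this step too, where 17.9% of all genes rose and 17.4% fell. Of 4 kidney and intermediate mesoderm markers 1 rose and 1 fell: OSR1, also a foregut mesoderm gene, was at 0.05 and 0 in DE and at 131 and 136 FPKM in AFE, while PAX2 and LHX1 were at or below 0.39 FPKM in AFE. Of the 13 mesenchyme markers 8 rose and 2 fell, and their sum went from 413 and 321 FPKM to 132 and 136 FPKM. Neural markers summed to 67.5 and 56.6 FPKM in DE and 3.58 and 3.66 FPKM in AFE. Their part in the HOX values was not tested.

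From AFE to LPO, the central genes of all 4 clusters rose whereas HOXA2, HOXB1 and HOXB2 fell. Of the 32 tested members 22 rose (30.2% of all genes), 4 fell (29.6% of all genes) and 6 were not called, where 59.8% of all genes were called in either direction. All 13 central members rose, 4 of 8 anterior members rose and the other 4 fell, and 5 of 11 posterior members rose. Without scaling between libraries, 23 members rose and 4 fell, where 7757 genes of the table rose and 4200 fell (5842 and 5732 with scaling), and the median log2 change of all genes was 0.58 in place of 0.09. HOXA2, HOXB1 and HOXB2 also fell without scaling.

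HOXB1 fell most, 10.2-fold, from 22.9 ± 1.82 to 2.24 ± 0.644 CPM (log2 change of -3.35 with SE 0.302, edgeR adjusted p = 1.90e-04). HOXA2 was 5.85-fold lower, at 21.5 ± 0.320 CPM (-2.55 with SE 0.271, 8.35e-05). HOXB2 was 2.39-fold lower, at 43.5 ± 0.937 CPM (-1.26 with SE 0.175, 7.18e-04). HOXD1 rose 6.40-fold, and the paralog 3 members HOXA3, HOXB3 and HOXD3 rose 2.78-fold, 3.51-fold and 29.0-fold.

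Among central genes, HOXA5 rose 63.4-fold, from 1.70 ± 0.0677 to 108 ± 8.35 CPM (log2 change of 5.98 with SE 0.243, edgeR adjusted p = 6.42e-07). HOXB6 rose 27-fold to 203 ± 9.52 CPM (4.75 with SE 0.121, 3.92e-07) and HOXC6 35.1-fold to 33.6 ± 0.892 CPM (5.13 with SE 0.486, 4.30e-05). HOXC5 rose 17.0-fold and HOXD4 16.6-fold, while HOXA7 had a ratio of 49.2 (interval 13.4 to 411). HOXB4, HOXB5, HOXB7 and HOXB8 rose 2.58-fold, 6.90-fold, 5.92-fold and 7.71-fold, HOXC4 and HOXC8 3.61-fold and 7.36-fold, and HOXD8 6.24-fold. Within a paralog number, the folds thus ran from 2.58 to 16.6 for paralog 4 and from 6.90 to 63.4 for paralog 5, and these differences between members were not tested.

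Of the posterior genes, HOXB9 rose 10.1-fold to 106 ± 1.96 CPM, HOXA9 14.7-fold, HOXC9 7.42-fold and HOXD9 10.4-fold, so that all 4 paralog 9 members were called. HOXC10 rose at least 12-fold. HOXA10 (edgeR adjusted p = 0.052), HOXA11, HOXB13, HOXC13, HOXD10 and HOXD13 were not called. The median log2 change was 0.11 for anterior, 2.95 for central and 3.34 for tested posterior members, beside 0.09 for all genes tested.

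Some of these calls from AFE to LPO were lost when 1 library was left out, which leaves 1 library in that stage. HOXA7 was not called without LPO replicate 1 or LPO replicate 2, though its log2 change stayed at 5.56 and 5.57 (5.58 with all libraries). HOXA9 was not called without AFE replicate 1. HOXD9 was not called without AFE replicate 2, LPO replicate 1 or LPO replicate 2, with log2 changes of 2.97, 3.13 and 3.55 (3.37 with all libraries). The log2 change of HOXD4 was 5.38 without AFE replicate 1 and 3.37 without AFE replicate 2 (4.04 with all libraries). That of HOXA9 was 3.29 without AFE replicate 1 and 4.86 without AFE replicate 2 (3.87), and that of HOXA7 was 4.60 without AFE replicate 1 (5.58). Without AFE replicate 2, HOXA7 was at 0 in AFE. With DESeq2, HOXA7 (adjusted p = 0.284), HOXC4 (0.316) and HOXC10 (0.067) were not called.

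**Figure D4:**
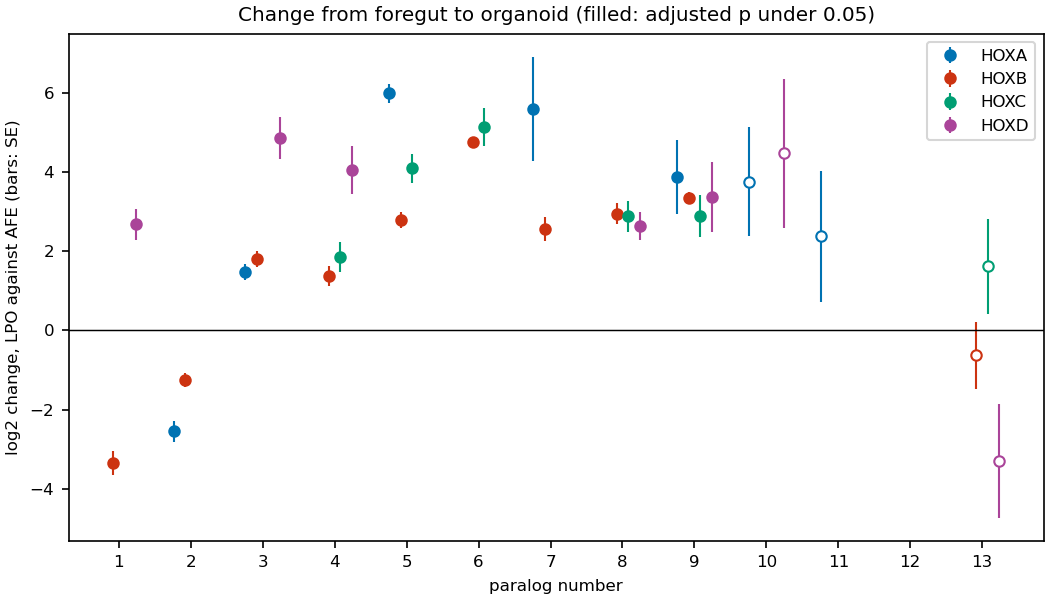
Log2 change from AFE to LPO (vertical axis, bars are SE) of tested members by paralog number, coloured by cluster, filled where called. HOXC10, at 0 in AFE, is left out. HOXA2, HOXB1 and HOXB2 lie below 0, all central members above.

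Markers of more than 1 cell type moved in the same direction as the central HOX genes from AFE to LPO, while other lists were mixed. Over all genes, 30.2% rose and 29.6% fell at this step. The 5 lung epithelium markers, counted above, summed to 20.7 and 18.4 FPKM in AFE and 75.6 and 78.5 FPKM in LPO. Of the 13 mesenchyme markers 11 rose and 1 fell (ACTA2). Their summed level was 132 and 136 FPKM in AFE and 2440 and 2496 FPKM in LPO, with none at 0 in either stage. The collagen gene COL3A1 was at 23.0 and 23.2 FPKM in AFE and 658 and 661 FPKM in LPO, and TBX5, a lung mesenchyme and heart regulator, at 0.03 and 0.02 FPKM and 3.53 and 3.36 FPKM. All 3 neural markers that were tested rose. Neural markers summed to 9.45 and 9.90 FPKM in LPO, with PAX6 and SOX1 at 0 in both AFE libraries. Endothelium and blood markers summed to 2.11 and 2.07 FPKM in AFE and 7.59 and 7.01 FPKM in LPO. Of these 5 markers 1 rose, 1 fell and 3 were not called. Of 4 hindgut and intestinal markers 2 rose and 2 fell. Of 4 kidney and intermediate mesoderm markers 2 rose and 1 fell. The sum of these 4 went from 131.5 and 136.7 FPKM in AFE to 18.4 and 20.5 FPKM in LPO. The part of these cell types in the HOX values was not tested.

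Over the whole course from PSC to LPO, nearly every HOX gene that could be tested rose. Of the 32 tested members 31 were called higher (41.5% of all genes) and none lower (28.8% of all genes), and HOXD13 was not called. In either direction 70.3% of all genes were called. HOXB6 rose at least 620-fold, HOXB9 at least 324-fold, HOXB8 at least 249-fold, HOXB3 at least 231-fold and HOXB4 at least 151-fold. HOXC4 rose at least 142-fold and HOXB2 at least 133-fold, and HOXA5 rose 105-fold (log2 change of 6.73 with SE 0.263, edgeR adjusted p = 2.52e-07). The median log2 change was 11.36 as fitted and 5.37 with genes at their bound, beside 0.49 for all genes tested.

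Some of these rises were less certain. HOXA11, at or under the floor in both stages, was not called without any 1 PSC, DE or LPO library (adjusted p = 0.0834 to 0.199), and HOXD10 was not called without any 1 PSC or LPO library (0.0668 to 0.147). With DESeq2, HOXA7 (0.0745), HOXA11 (0.0687) and HOXC10 (0.0912) were not called. Leaving out a PSC library moved the log2 change of HOXC6 to 5.34 or 7.80 (6.15 with both), and leaving out PSC replicate 2 moved that of HOXD1 to 5.52 (4.79). HOXA9 and HOXB13 had 1 to 3 read pairs in PSC, and their ratios were 46.3 (interval 12.7 to 384) and 18.4 (4.94 to 154). HOXC5 had a count of 2 in PSC replicate 1, under 1 read pair, and 0 in the other, so no ratio is given. Without PSC replicate 2, the log2 change of HOXA9 was 4.52 (5.44 with both), and without PSC replicate 1 that of HOXB13 was 3.20 (4.25). Without the other PSC library, HOXA9 and HOXB13 were each at 0 in PSC.

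Genes beside the clusters moved in both directions. The nearest 2 genes with a symbol on each side of each cluster made 16 flanking genes. From DE to AFE 3 rose and 5 fell, where 17.9% of all genes rose and 17.4% fell. From AFE to LPO 7 rose and 5 fell, where 30.2% of all genes rose and 29.6% fell. SKAP2, an adaptor protein gene beside the HOXA cluster, was at 1.94 and 1.98 FPKM in PSC, 1.62 and 1.9 FPKM in DE, 40.6 and 39.4 FPKM in AFE, and 79.9 and 77.7 FPKM in LPO. It rose 23.5-fold from DE to AFE (log2 change of 4.55 with SE 0.102, edgeR adjusted p = 4.05e-07) and 1.40-fold from AFE to LPO. Its relative SKAP1, beside the low-number end of HOXB, rose 16.0-fold from DE to AFE, to 9.92 and 10.3 FPKM. The other neighbours at the low-number ends were not called higher at that step. SNX10 (HOXA), CBX5 (HOXC) and NFE2L2 (HOXD) fell 1.63-fold, 1.18-fold and 1.47-fold. SNX11 (HOXB), SMUG1 (HOXC) and MTX2 (HOXD) were not called. At the other ends, EVX1, a homeobox gene beside HOXA13, was at 0.10 and 0.08 FPKM in AFE. EVX1 fell to 0 and 0.02 FPKM in LPO (edgeR adjusted p = 0.0365). TTLL6, beside HOXB13, was at 3.89 and 3.02 FPKM in PSC and at 0.20 FPKM or less in AFE and LPO. At these ends ATP5MC2 (HOXC) rose 1.97-fold from DE to AFE and ATP5MC3 (HOXD) fell 1.37-fold. HIBADH (HOXA), CALCOCO2 (HOXB), CALCOCO1 (HOXC) and LNPK (HOXD) were not called at that step. Inside the clusters lay 14 further rows, most of them microRNAs and long noncoding RNAs. The most abundant, a protein-coding row without a symbol in HOXA (ENSSSCG00000016704, chromosome 18, 45443208 to 45445631, plus strand), was at 0.65 and 0.80 FPKM in AFE and 15.6 and 12.9 FPKM in LPO, a 13.8-fold rise (log2 change of 3.79 with SE 0.710, edgeR adjusted p = 0.00212).

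HOX proteins bind DNA together with partners of the TALE homeodomain family, the PBX, MEIS and PKNOX proteins. Of these, 8 were analysed. From DE to AFE 3 of the 8 rose and 3 fell, where 35.3% of all genes were called in either direction. From AFE to LPO 4 rose and 2 fell, where 59.8% were called. MEIS1 was at 0.12 and 0.05 FPKM in DE, 5.18 and 4.83 FPKM in AFE, and 11.8 and 11.4 FPKM in LPO, and rose 59.4-fold from DE to AFE (log2 change of 5.89 with SE 0.28, edgeR adjusted p = 7.79e-06) and 1.64-fold to LPO. MEIS2 was at 1.49 and 1.16, 11.1 and 11.7, and 31.8 and 33.5 FPKM, and rose 8.89-fold and then 2.03-fold. MEIS2 had also risen from PSC to DE (4.17-fold), whereas MEIS1 had fallen (2.25-fold).

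PBX4 took another course, at 12.1 and 11.5 FPKM in DE, 13.4 and 15.0 FPKM in AFE, and 5.42 and 4.67 FPKM in LPO, a 3.95-fold fall from AFE to LPO (edgeR adjusted p = 2.95e-04). PBX2 and PBX3 changed by less than 2-fold at each step, and reached 53.7 and 55.1 FPKM and 14.5 and 13.8 FPKM in LPO. MEIS3 was the most abundant partner in PSC, at 52.9 and 42.6 FPKM, and stood at 37.1 and 38.9 FPKM in LPO. PKNOX1 differed between the AFE libraries (3.63 and 8.59 FPKM) and was not called at any single step, and PKNOX2 stayed between 1.69 and 4.11 FPKM.

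**Figure D5:**
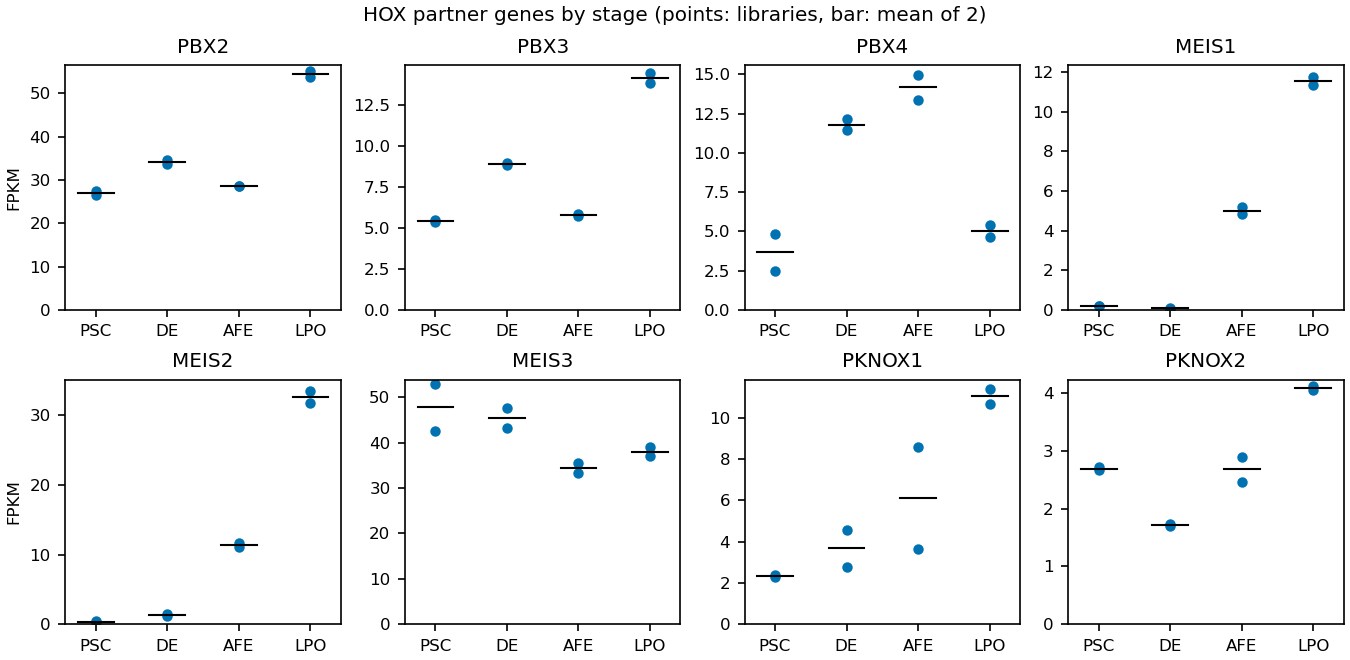
FPKM of 8 HOX partner genes at each stage, with points for libraries and a bar for the mean of 2. MEIS1 and MEIS2 climb from DE to LPO, and PBX4 is lower in LPO than in AFE.

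Several homeobox genes that act upstream of HOX genes or in the same regions were highest in AFE. Of 8 measured, 3 rose and 1 fell from DE to AFE (35.3% of all genes were called), and none rose and 4 fell from AFE to LPO (59.8%). CDX2, a regulator of posterior HOX genes and of the intestine, was at 0 in PSC, 1.40 and 1.01 FPKM in DE, 9.45 and 11.9 FPKM in AFE, and 0.52 and 0.41 FPKM in LPO. It rose 9.11-fold from DE to AFE and was 32.0-fold lower in LPO (log2 change of -5.00 with SE 0.30, edgeR adjusted p = 1.05e-05). Its relative CDX4 was at 11.5 and 10.7 FPKM in PSC, 0.50 and 0.17 FPKM in DE, and 0 in AFE and LPO. MNX1, a gene of motor neurons and pancreas, rose 222-fold from DE to AFE, to 42.2 and 42.4 FPKM, and was 25-fold lower in LPO. GBX2, of the midbrain and hindbrain border, was at 0.76 and 0.55 FPKM in AFE and at 0 in LPO.

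Most genes of retinoic acid signalling rose at the step at which the anterior HOX genes rose. Of 17 such genes 12 rose and 3 fell from DE to AFE, where 17.9% of all genes rose and 17.4% fell. Their median log2 change was 2.69 beside 0 for all genes tested. ALDH1A1, an enzyme that makes retinoic acid, rose 55.2-fold to 5.07 and 5.16 FPKM, and RARB, a receptor gene that retinoic acid itself induces, rose 63.0-fold to 39.7 and 39.5 FPKM (log2 change of 5.98 with SE 0.28, edgeR adjusted p = 6.78e-06). DHRS3, which lowers retinoic acid by reducing its precursor, rose 8.36-fold to 217 and 213 FPKM. From AFE to LPO 5 rose and 6 fell, where 30.2% of all genes rose and 29.6% fell. CYP26A1, the main enzyme that degrades retinoic acid, went from 281 and 276 FPKM in AFE to 6.35 and 6.08 FPKM in LPO, a 63.0-fold fall (log2 change of -5.98 with SE 0.25, edgeR adjusted p = 7.12e-07), and its relative CYP26C1 was 91.5-fold lower. The third gene of this kind, CYP26B1, ran the other way, from 29.2 and 29.5 FPKM in AFE to 102.6 and 103.3 FPKM in LPO, a 2.49-fold rise (edgeR adjusted p = 0.00245), after a 186-fold rise from DE to AFE. It was named after its values were seen.

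Chromatin regulators of the HOX clusters changed in both directions. Polycomb proteins keep HOX genes silent. Of 21 measured genes 6 rose and 8 fell from PSC to DE, where 53.8% of all genes were called. From DE to AFE 8 rose and 3 fell (35.3% of all genes called), and from AFE to LPO 9 rose and 8 fell (59.8%). JARID2, which brings the complex to its targets, was at 20.9 and 20.0 FPKM in PSC, 14.9 and 11.9 FPKM in DE, 5.40 and 5.34 FPKM in AFE, and 30.9 and 31.8 FPKM in LPO, a 2.41-fold fall followed by a 4.14-fold rise. PHC1 fell 3.09-fold from DE to AFE, to 13.1 and 13.8 FPKM, and BMI1 rose 4.37-fold from PSC to DE and 3.53-fold from AFE to LPO. The list held genes that moved each way at every step.

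Of 11 trithorax genes and histone demethylases, which oppose Polycomb, 3 rose and 5 fell from PSC to DE. From DE to AFE 1 rose and 4 fell, and from AFE to LPO 6 rose and 4 fell. At these steps 53.8%, 35.3% and 59.8% of all genes were called in either direction, shares that also stand beside the 5 other regulators below. KDM6B, which removes the Polycomb mark, rose 9.82-fold from PSC to DE, and its relative KDM6A rose 3.96-fold from AFE to LPO, to 15.8 and 14.6 FPKM. WDR5, a subunit of the opposing methyltransferases, was 5.44-fold lower in LPO than in AFE, and DPY30, another subunit, 3.08-fold lower. Of 5 other regulators, 1 rose and 3 fell from PSC to DE, none rose and 2 fell from DE to AFE, and 1 rose and 1 fell from AFE to LPO. There, YY1 rose 1.88-fold and GMNN, the gene of the replication inhibitor geminin, fell 1.55-fold. The insulator gene CTCF fell 1.36-fold from DE to AFE, to 7.30 and 6.82 FPKM.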

How the data were processed

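Poly(A) RNA of 8 pig libraries was sequenced as stranded read pairs, per the labels' protocols. The authors deposited 1 table of 25578 genes with expected counts (whole numbers, no scaling between libraries) and FPKM, per the file headers. The figure of about 4 counts per read pair was inferred here from the values. Multiples of 4 made up 46.4% to 50.7% of the low counts of a library. Tools named in the submitters' processing notes are StringTie 2.1.6, HISAT2 2.2.1, cutadapt 1.9, edgeR and DESeq2, with no roles. Whether counting used strand is not stated there. Column names were matched to stages through the labels.

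Computed here with R 4.3.3 and edgeR 4.0.16: TMM scaling (factors 0.901 to 1.27), filterByExpr (19346 genes kept), and a quasi-likelihood fit of the 4 stages to all 8 libraries (4 residual degrees of freedom), with Benjamini-Hochberg adjustment over all genes at 0.05. SE is the size of the log2 change divided by the root of F. With 2 libraries a stage, an exact permutation p is at least 0.333, so none was computed. The fit was tested on simulated data. Figures used Python 3.11.15 with matplotlib 3.10.9.

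Members, TALE partners and genes of the lists are named, except that some are not reported or drawn here. Of the other lists, up to 3 called genes with the smallest adjusted p per comparison are named, with the nearest 2 genes with a symbol on each side of a cluster (order from the deposited coordinates), and from the marker lists a few chosen after their values were seen. Members and lists were chosen with earlier results of these data known. Alternatives were other filters, scalings and tests (limma 3.58.1 on log2 FPKM, DESeq2 1.42.0), counts divided by 4, a replicate block, and leaving out each library. The cluster sums without each AFE and LPO library were added after seeing the data.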

Additional observations from a re-analysis of the deposited data

How the results depend on the processing

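Over 18 alternatives, the called members kept direction and call in 289 of 304 values from PSC to DE, 275 of 288 from DE to AFE, 459 of 468 from AFE to LPO and 537 of 553 from PSC to LPO, and none of these values changed sign. With limma on log2(FPKM + 1), 10 members were called from PSC to DE in place of 17. With counts divided by 4 and rounded, 13 of 30 tested members rose at that step and 2 fell. HOXD3 (edgeR adjusted p = 0.0656) and HOXD4 (0.0555) were then not called. Leaving out 1 library gave 4535 to 7894 called genes in the whole table from DE to AFE, against 6838 with all, and 14 to 18 called HOX members, against 16. On summed CPM, the LPO to AFE ratios were 0.570 for HOXA, 2.98 for HOXB, 7.74 for HOXC and 10.3 for HOXD, against 0.521, 3.68, 12.3 and 14.9 on FPKM. The order of these 4 ratios was the same on both scales, while the order of the sums themselves was not. The cause of these shifts was not tested. With the replicate number as a block, 17, 15, 26 and 29 HOX members were called from PSC to DE, DE to AFE, AFE to LPO and PSC to LPO (17, 16, 26 and 31 without it), and 9759, 6137, 10788 and 12596 genes of the whole table. The calls lost with the block were HOXD8 (adjusted p = 0.0629) from DE to AFE, and HOXA11 (0.117) and HOXD10 (0.0625) from PSC to LPO. Libraries of the same number did not deviate together (correlations of -0.01 to 0.02), so the number is only a label. Depth limits the members of a few read pairs in PSC and DE, where only bounds could be given.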
